A study of Mus musculus with 15 samples.

Results

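The nuclear genes of respiratory complex I were followed in hearts of male C57BL/6 mice. They were chosen as the protein-coding genes of GENCODE M21 whose symbol begins with Ndufa, Ndufb, Ndufc, Ndufs or Ndufv, assembly factors of the Ndufaf series left out. The rule gave 38 genes, of which 37 had values, among 12391 named genes in all, and Ndufa13 was not analysed here. All 37 passed the filter on low values (at least 0.5 FPKM in at least 5 libraries) and entered the tests over 12267 genes. The label "subunit" holds for 35 of the 37: Ndufa4 is now assigned to complex IV, and Ndufa4l2 is its paralog. Neighbours of the set by name, the processed pseudogenes Ndufab1-ps, Ndufb4c and Ndufs6b, fall outside the rule, as does Ndufb1-ps, which the annotation types as a noncoding RNA. They averaged 102, 92.0, 17.8 and 184.5 FPKM in Control. Reads could be split between a member and its copy, so that Ndufab1, Ndufb4 and Ndufs6 are uncertain to that extent.

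Libraries came from 15 hearts in 3 groups of 5 male C57BL/6 mice. The labels name no treatment for Control mice. AngII mice had been infused with angiotensin II, the vasoconstrictor end product of the renin cascade, which loads the heart, and AngII+QDG mice had received AngII and QDG, a treatment that the labels name only by these letters. No dose, duration or age is given in the sources used here, and no allele is named for any group. Total RNA was depleted of ribosomal RNA before library construction, so transcripts with and without poly(A) tails were both open to sequencing.

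Complex I oxidises NADH from the mitochondrial matrix, hands the electrons to ubiquinone and pumps protons across the inner membrane. Its core subunits are conserved from bacteria: nuclear genes encode those of the peripheral arm that carry flavin and iron-sulfur clusters, and the mitochondrial genome encodes those that form the proton channels. The supernumerary subunits surround this core and are needed for its assembly and stability. Heart muscle is packed with mitochondria, and its nuclear respiratory chain genes are among its abundant messages.

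Values are FPKM, fragments scaled to transcript length and library depth, summed over the named transcripts of a gene, so that levels of different genes are compared per length. Low values rise in whole steps, and with 1 fragment per step depth ran from 51.6 to 78.3 in units of 1000000 fragments. A difference is given as the log2 change of FPKM + 1 with its standard error (SE) and the adjusted p of limma over all genes tested, and a gene is called where that p is under 0.05. The design text gives 5 mice per group, and the p-values measure the spread between these libraries. The libraries differed in the balance of short and long messages, measured as the mean log2 level of protein-coding transcripts under 1000 nt minus that of transcripts of at least 3000 nt. This balance averaged 1.67 ± 0.256 in Control, 1.19 ± 0.0818 with AngII and 1.15 ± 0.125 with AngII+QDG (SD, n = 5 each), and it was lower in AngII and in AngII+QDG than in Control (exact two-sided permutation p = 0.00794 for each, the smallest this design allows, adjusted p = 0.0119). Control 3 and Control 5 stood highest, at 1.93 each. The 8 cardiomyocyte markers were present in every library, with sums of 20980 to 29430 FPKM in Control, 22780 to 25840 with AngII and 17250 to 31310 with AngII+QDG. Marker sums of fibroblasts (6 of 6 genes measured) ran from 217 to 296, 248 to 383 and 256 to 383 FPKM in the same order, and those of pericytes and smooth muscle (6 of 6) from 119 to 193, 183 to 267 and 139 to 225. Endothelial sums (6 of 6) were 96.3 to 163, 134 to 195 and 115 to 144 FPKM, and macrophage sums (6 of 6) 113 to 189, 98.6 to 188 and 106 to 145. Erythroid markers (5 of 5) summed to 3795 to 12220, 2198 to 9324 and 2698 to 9472 FPKM. Atrial markers (2 of 3, Sln not listed) stayed at or under 17.0 FPKM, lymphocyte markers (1 of 4) at or under 1.69, and the 4 adipocyte markers were not listed. In the same fit, 1 cardiomyocyte, 1 pericyte and smooth muscle and 1 macrophage marker were called higher in AngII than in Control. In AngII+QDG against Control, 2 fibroblast, 1 endothelial and 1 macrophage marker were called higher, and 1 endothelial and 1 erythroid marker lower. Changes of the 5 erythroid markers were below zero in both comparisons, with medians of -0.48 and -0.42. Of all genes, 11.9% were called higher and 1.48% lower in the first comparison, and 16.0% and 3.31% in the second. The part of these cell types in the results below was not tested.

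In the hearts as a whole, complex I messages were abundant and most of them lay within a narrow band. The 35 subunits measured summed to 15000 ± 1838 FPKM in Control, 12610 ± 525 with AngII and 12430 ± 891 with AngII+QDG (SD, n = 5 each). As a share of the FPKM of all named genes, they made up 2.09 ± 0.260%, 1.96 ± 0.0799% and 1.92 ± 0.151%, and the libraries of the groups overlapped. Set against the 41 nuclear subunits of complexes II to V, the sums were 33.0 ± 1.01, 33.7 ± 0.912 and 34.4 ± 1.06 per 100. Ndufb9 had the highest mean over all libraries, 1090 FPKM, and Ndufa11 the lowest of the subunits, 87.6 FPKM, a ratio of 12.5. The means of 26 of the 35 lay within 2-fold of the median of all members, 340.2 FPKM. The Control libraries spread most: the median coefficient of variation over members was 17.2% in Control, 7.0% with AngII and 9.81% with AngII+QDG. Control 3 was the highest library of all 15 for 19 of the 37 members, and AngII+QDG 1 the lowest for 19.

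**Figure D1:**
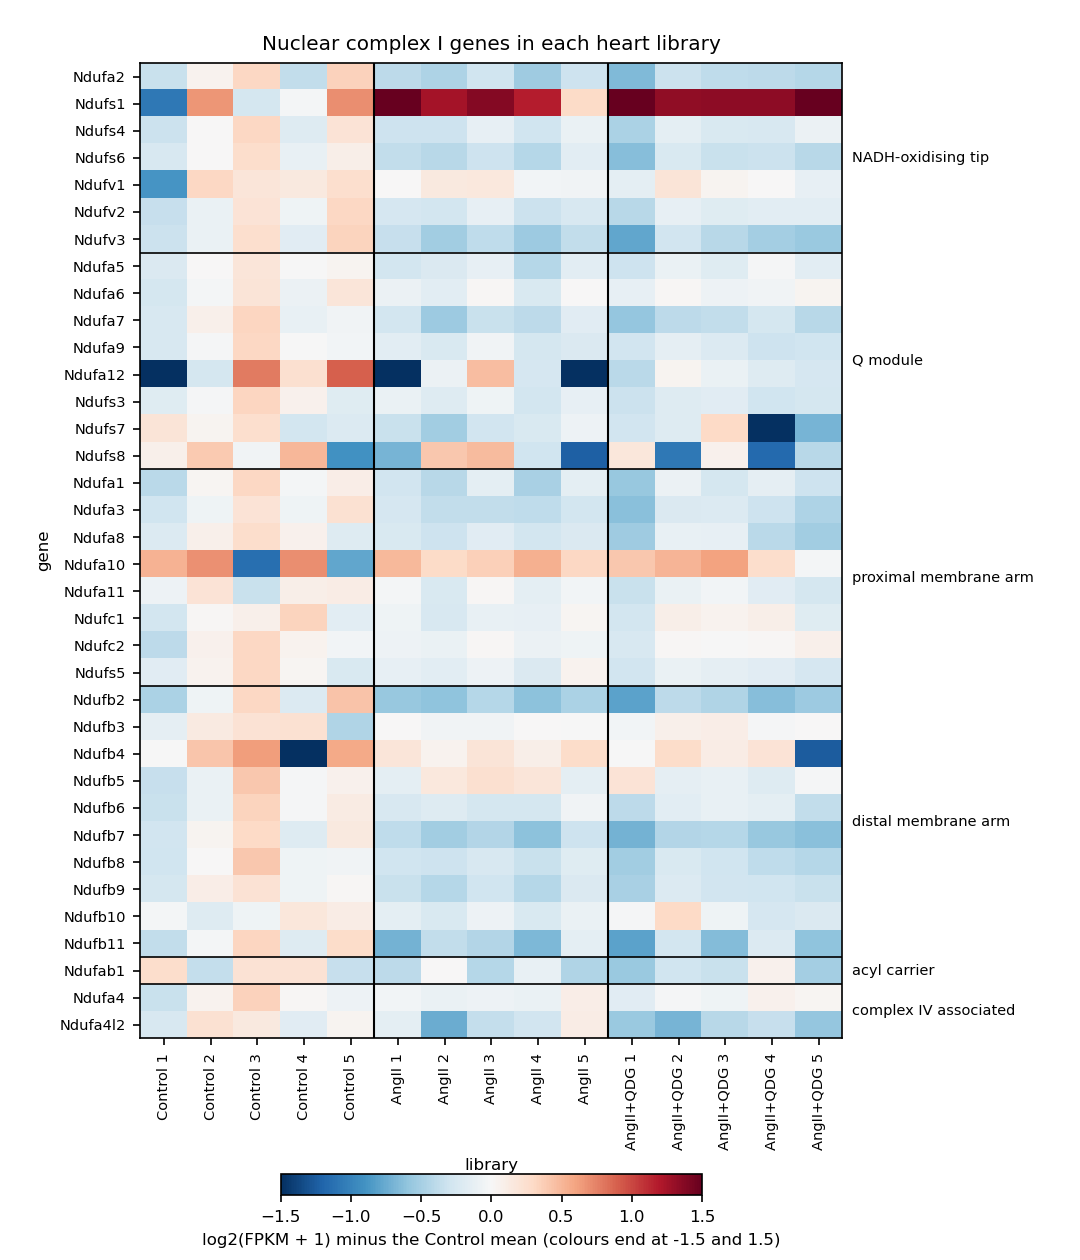
Level of 36 of the 37 genes in each of the 15 libraries, as log2(FPKM + 1) minus the mean of the Control libraries, with genes in rows by their place in the complex and libraries in columns. Ndufs1 is the row that runs highest in AngII and AngII+QDG, and Control 3 and Control 5 hold the lowest values of Ndufa10.

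To ask what AngII infusion did to the set, AngII was compared with Control. Of the 37 genes, 6 were lower and 1 was higher. The lower genes were Ndufb7, Ndufb9, Ndufb2, Ndufv3, Ndufa7 and Ndufs6, all supernumerary subunits, with log2 changes between -0.54 and -0.34, and the higher gene was the core subunit Ndufs1, whose mean rose from 74.7 ± 34.0 to 156 ± 44.4 FPKM. Over all genes tested, 1.48% were called lower and 11.9% higher. The median change of the members was -0.24, against 0.20 for all genes. With this library balance as a covariate it was 0.02, beside -0.02 for all genes, and no member and no gene of the 12267 was called. Every Control library (1.37 or more) lay above every AngII and AngII+QDG library (1.33 or less) in this balance. Balance and group therefore cannot be told apart in a fit that holds both. Without the covariate, 31 of the 37 members were below zero, beside 27.9% of all genes. Of other protein-coding genes, 70.1% were below zero under 1000 nt, where 24 members lie, and 38.4% from 1000 to 2000 nt, where 12 lie. Unadjusted p-values were under 0.05 for 15 members. Ndufb7 and Ndufv3 had every AngII library below every Control library, as did 1.0% of all genes, and no member had every AngII library above, as 10.1% of genes did. With each library centred on its own median, which takes out the shift of all genes, the members' median was -0.50 and 12 were called, all lower. The count of 7 was 14 without Control 1, 4 without AngII 3, 3 without Control 5 or AngII 5, 2 without Control 2, 1 without Control 3 or AngII 1, and 0 without AngII 2 or AngII 4. Without Control 3 and Control 5 together it was also 0, when 97 genes of all were called in place of 1638. In bulk tissue, fewer cells of a type and less RNA per cell cannot be told apart.

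**Figure D2:**
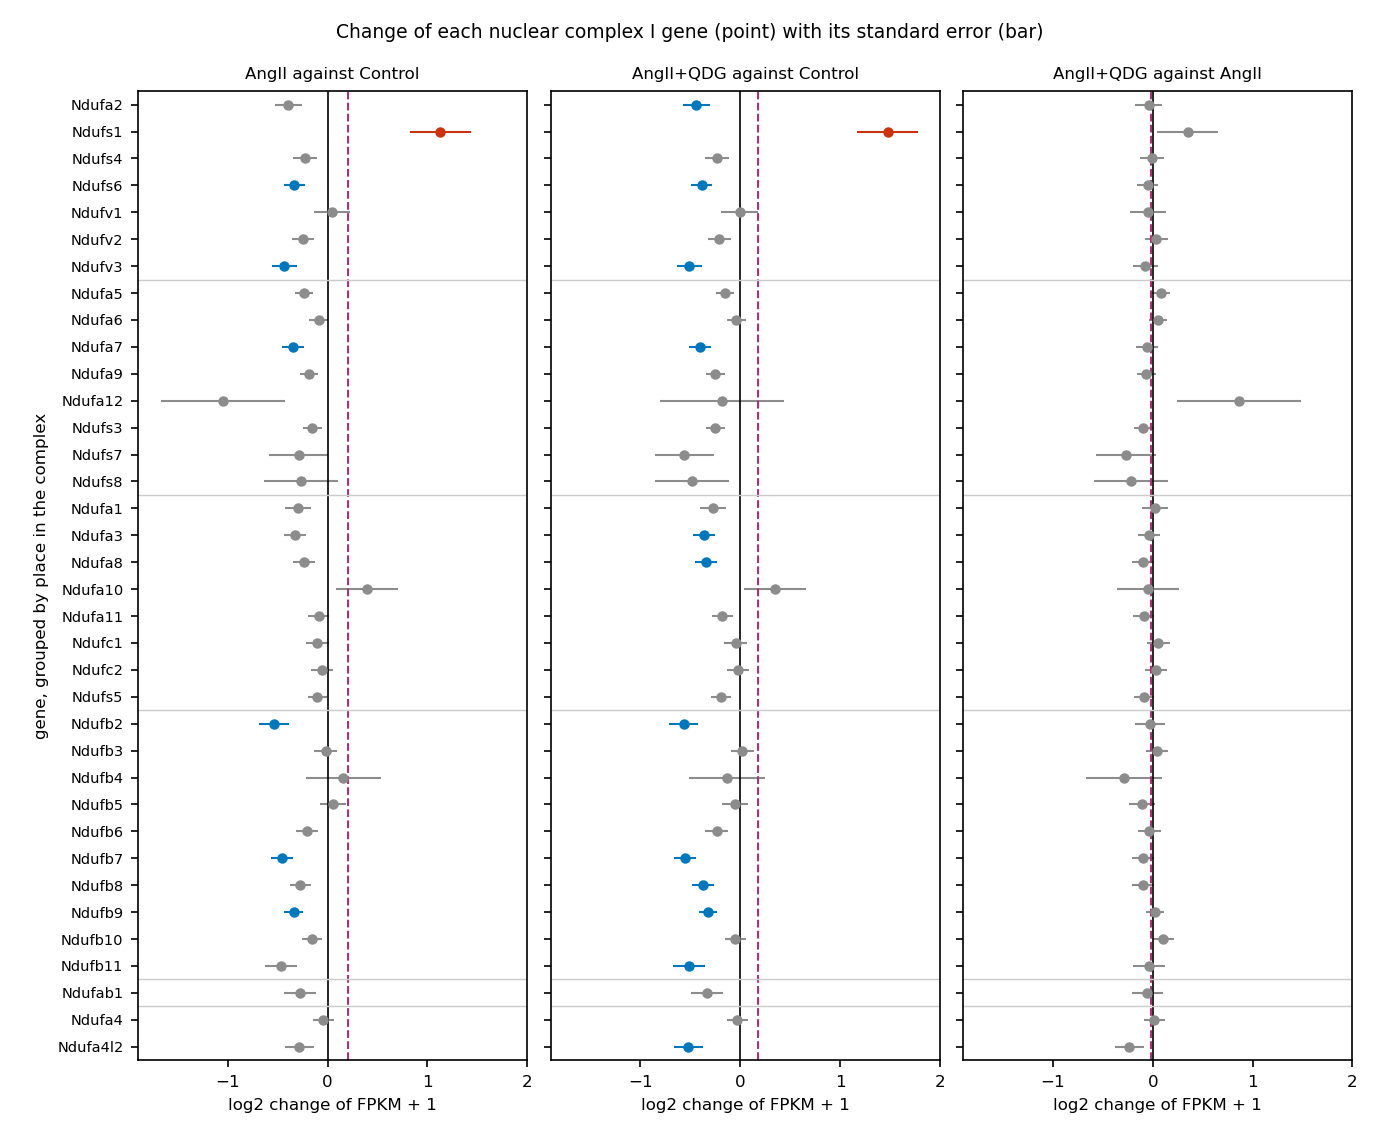
Log2 change with its standard error for 36 of the members in the 3 comparisons, red for called higher, blue for called lower and grey for not called, with a dashed line at the median of all genes tested. Most members lie left of that line in both comparisons with Control and around it in AngII+QDG against AngII, and with the library balance as a covariate the members' medians against Control are 0.02 and -0.01.

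Promoters are shown for members called lower against Control, where a RefSeq entry existed, because nuclear respiratory chain genes are textbook targets of NRF1, of the ETS factor GABPA and of YY1. The RefSeq table (GRCm38.p6) matched 33 of the 38 symbols, each with 250 bases before the start and 50 after. The 2 stretches below end at the RefSeq start of a gene called lower in both comparisons with Control and overlap no exon of GENCODE M21. They are written 5′ to 3′ on the gene's strand, and neither holds any of the 4 motifs searched.
Ndufb2, chr6:39592445-39592564, plus strand: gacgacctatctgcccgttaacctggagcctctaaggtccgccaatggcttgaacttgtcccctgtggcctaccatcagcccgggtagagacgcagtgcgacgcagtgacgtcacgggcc
Ndufv3, chr17:31519995-31520114, plus strand: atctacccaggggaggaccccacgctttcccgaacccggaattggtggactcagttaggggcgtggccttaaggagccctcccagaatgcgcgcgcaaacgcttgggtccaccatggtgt
The next windows of 30 bases hold a motif, in capitals: the ETS motif in Ndufb7, and the NRF1 motif in Ndufs6, Ndufa8 and, for comparison, Ndufa11, which was not called. In Ndufs6 and Ndufa8 the motif reads on the opposite strand. It begins 20, 16, 30 and 60 bases before the RefSeq start in this order. The Ndufb7, Ndufs6 and Ndufa8 windows lie inside a GENCODE M21 exon, since the 2 annotations place starts differently.
Ndufb7, chr8:83566727-83566756, plus strand: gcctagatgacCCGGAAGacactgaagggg
Ndufs6, chr13:73328479-73328508, minus strand: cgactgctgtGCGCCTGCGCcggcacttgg
Ndufa8, chr2:36049349-36049378, minus strand: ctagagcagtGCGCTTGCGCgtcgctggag
Ndufa11, chr17:56717692-56717721, plus strand: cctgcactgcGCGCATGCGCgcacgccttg
The NRF1 motif, in capitals above and with any base allowed in 1 place, stood on either strand in 7 of the 33 members (21.2%), beside 4.60% of all 32851 promoters and 11.7% of the 8863 tested genes matched. The ETS motif CCGGAAG stood in 4 (12.1%, beside 8.86% and 20.6%), and the YY1 motif in 4 (12.1%, beside 0.852% and 2.57%). The estrogen-related receptor motif TCAAGGTCA stood in none, beside 0.423% and 0.384%. Of the members called lower in either comparison with Control, Ndufs6 held both the NRF1 and the YY1 motif, Ndufa8 the NRF1 motif and Ndufb7 the ETS motif. A match is a string of letters, and binding was not measured.

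The tip of the peripheral arm, where NADH is oxidised, held the one riser beside members that were lower. In AngII against Control, 2 of its 7 members were lower and 1 higher, and in AngII+QDG against Control 3 were lower and 1 higher. The median change of the group was -0.24 and -0.23, and 0.18 and 0.24 with the balance as a covariate. From here on, values in the 5 libraries of a group follow the library number, and gene positions are those of GENCODE M21 on GRCm38. Ndufs1 (chromosome 1, 63143596 to 63176833, minus strand), which carries iron-sulfur clusters and is the largest peripheral subunit, measured 31.7, 108, 56.5, 66.5 and 111 FPKM in Control, 200.1, 163, 178, 154 and 82.7 with AngII and 218, 172, 174, 173 and 224 with AngII+QDG. AngII 5 lay within the Control range, the other 4 AngII libraries lay above it, and so did all 5 AngII+QDG libraries, with no overlap. Its log2 change was 1.13 (SE 0.30, adjusted p = 0.0308) in AngII and 1.48 (SE 0.30, adjusted p = 0.00649) in AngII+QDG against Control, and the AngII call was lost without Control 3, AngII 1, AngII 2 or AngII 4. The AngII call was also lost after quantile normalization, after median centring and with the length trend removed. So it was with the replicate number as a block, with the 2 groups fitted alone and without Control 3 and Control 5 together. Across 27 alternative fits Ndufs1 was called in 16 for AngII against Control and in 26 for AngII+QDG against Control. With the balance as a covariate its changes were 1.47 and 1.85, and neither was called.

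Ndufv1 (chromosome 19, 4007384 to 4012806, minus strand) binds the flavin and NADH. It measured 135, 309.6, 283, 277 and 297 FPKM in Control, 251, 276, 279, 243 and 241 with AngII and 225, 286, 257, 251 and 229 with AngII+QDG. Control 1 stood apart below all other libraries, the rest overlapped, and Ndufv1 was not called in any comparison (log2 changes 0.04 and -0.01 against Control). Its partner Ndufv2 (chromosome 17, 66078638 to 66101559, minus strand), which holds an iron-sulfur cluster, measured 295, 348, 432, 357 and 466 FPKM in Control, 314, 309, 344, 299 and 316 with AngII and 280.0, 343, 329, 336 and 336 with AngII+QDG. The highest libraries were Control 3 and Control 5, both groups overlapped Control, and the changes were -0.24 (SE 0.11, adjusted p = 0.151) and -0.21 (SE 0.11, adjusted p = 0.206).

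Ndufv3, the small supernumerary subunit bound to this pair (chromosome 17, 31520115 to 31531331, plus strand), was called in both comparisons with Control. It measured 537, 626, 796, 593 and 845 FPKM in Control, 527, 465, 512, 458 and 519 with AngII and 391, 550.0, 499, 469 and 455 with AngII+QDG. Every AngII library lay below every Control library, while AngII+QDG 2 reached into the Control range. The changes were -0.43 (SE 0.13, adjusted p = 0.0389) and -0.51 (SE 0.13, adjusted p = 0.0138). The first call was kept in 7 of the 15 fits that left out a library, and the second in all 15. Ndufs6 (chromosome 13, 73319838 to 73328542, minus strand), a zinc-binding subunit added late in assembly, measured 558, 665, 794, 612 and 700.5 FPKM in Control, 513, 495, 534, 492 and 593 with AngII and 425, 565, 526, 529.6 and 496 with AngII+QDG. One library of each treated group lay above Control 1, the lowest Control, and all others lay below the Control range. Its changes were -0.34 (SE 0.10, adjusted p = 0.0469) and -0.39 (SE 0.10, adjusted p = 0.0198). Of the 15 fits that left out a library, 3 kept the first call of Ndufs6 and 14 the second. Ndufa2, a subunit with a thioredoxin-like fold, measured 520.1, 678, 815, 509 and 831 FPKM in Control, 501, 475, 534, 455 and 531 with AngII and 414, 523, 502, 499.6 and 486 with AngII+QDG. Control 1 and Control 4 were close to the treated libraries and the other 3 Controls above all of them. Ndufa2 was called lower in AngII+QDG against Control only, at -0.44 (SE 0.14, adjusted p = 0.0346), beside -0.40 (SE 0.14, adjusted p = 0.0636) in AngII, and the difference between these comparisons is the one of AngII+QDG with AngII, -0.04 (adjusted p = 0.998, limma). Ndufs4, which had changes of -0.23 and -0.23, completes the group and was not called.

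The Q module, where electrons pass to ubiquinone, held most of the core subunits and few calls. Of its 9 members, 1 was lower in each comparison with Control, Ndufa7 in both. The median changes were -0.24 and -0.25, and -0.03 and -0.10 with the balance as a covariate. Ndufa7 (chromosome 17, 33824572 to 33838317, plus strand), a supernumerary subunit of the junction between the arms, measured 389, 485, 574, 425 and 441 FPKM in Control, 378, 314, 362, 348 and 406 with AngII and 306, 349, 356, 382 and 345 with AngII+QDG. AngII+QDG lay wholly below Control, as held for 1.73% of all genes, and of the AngII libraries only AngII 5 rose above Control 1. Its changes were -0.35 (SE 0.11, adjusted p = 0.0460) and -0.40 (SE 0.11, adjusted p = 0.0179). Of the 15 fits that left out a library, 3 kept the first call of Ndufa7 and 14 the second.

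Ndufs7 (chromosome 10, 80249121 to 80256794, plus strand) carries an iron-sulfur cluster beside the ubiquinone site. It measured 320.4, 288, 335, 230.5 and 243 FPKM in Control, 223, 195, 230.3, 238 and 266 with AngII and 229.5, 245, 346, 73.7 and 172 with AngII+QDG. AngII+QDG held both its highest and its lowest library, so that the change of -0.56 in AngII+QDG against Control came with a 95% interval of -1.19 to 0.08. Ndufs3 (chromosome 2, 90894634 to 90904827, minus strand), one of the first core subunits to be assembled, measured 306, 344, 435, 363 and 307 FPKM in Control, 324, 304, 332, 287 and 318 with AngII and 278, 304, 308, 284 and 289.6 with AngII+QDG. Its AngII and AngII+QDG libraries lay close together and Control 3 above all others, with changes of -0.15 (SE 0.09, adjusted p = 0.275) and -0.25 (SE 0.09, adjusted p = 0.0763).

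Ndufs8 (chromosome 19, 3908863 to 3912774, minus strand), which carries iron-sulfur clusters, was the most uneven core subunit after Ndufs1 among the Controls. It measured 102, 128, 93.7, 138 and 51.3 FPKM in Control, 59.8, 129, 135, 78.7 and 41.1 with AngII and 109.8, 45.6, 101, 42.8 and 72.8 with AngII+QDG. The highest library of each group was over 2-fold above its lowest, and the changes of -0.27 and -0.48 were not called. Ndufa12, which sits near the junction of the modules, was still more uneven, at 53.2, 139.7, 289, 199.5 and 315 FPKM in Control, 37.4, 158, 232, 142 and 17.3 with AngII and 128, 173, 158, 148 and 141 with AngII+QDG. The 2 lowest libraries were AngII 5 and AngII 1, and the change in AngII against Control, -1.05, had the widest interval of all members, -2.37 to 0.28. Ndufa5 measured 558, 651, 733, 645 and 667 FPKM in Control, 536, 559.6, 594, 482 and 582 with AngII and 523, 606, 572, 639 and 579 with AngII+QDG. AngII and Control overlapped, and its change of -0.24 (SE 0.09, adjusted p = 0.0829) was not called. Ndufa6, an LYR-motif protein, and Ndufa9, which binds a nucleotide cofactor, had changes in AngII against Control of -0.09 and -0.18, and in AngII+QDG against Control of -0.04 and -0.25, none called.

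In the proximal part of the membrane arm, next to the peripheral arm, no member of 8 was called in AngII against Control and 2 were lower in AngII+QDG against Control. The medians were -0.10 and -0.19, and -0.03 and -0.04 with the balance as a covariate. Ndufa3 (chromosome 7, 3617373 to 3620327, plus strand), a single-span membrane subunit, measured 673, 789.6, 957, 790.0 and 967 FPKM in Control, 692, 642, 643, 637 and 686 with AngII and 536, 714, 720.2, 666 and 598 with AngII+QDG. AngII 1, AngII 5 and AngII+QDG 2 and 3 lay above Control 1, and all of the treated libraries lay below the other 4 Controls. Its changes were -0.33 (SE 0.11, adjusted p = 0.0589) and -0.36 (SE 0.11, adjusted p = 0.0311). Ndufa8 (chromosome 2, 36036326 to 36049406, minus strand), a twin-cysteine protein of the intermembrane space, measured 460.1, 559.7, 635, 556 and 463 FPKM in Control, 452, 428, 472, 438 and 458 with AngII and 365, 490.4, 486, 402 and 369 with AngII+QDG. Control 1 and Control 5 were inside the range of the treated libraries. Its changes were -0.24 (SE 0.11, adjusted p = 0.152) and -0.34 (SE 0.11, adjusted p = 0.0427), the second of which was lost in 11 of the 15 fits that left out a library.

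Ndufa10, a subunit of the nucleoside kinase family, was low in 2 Control libraries. It measured 277, 310.4, 87.8, 313 and 112 FPKM in Control, 271, 235, 248, 279.9 and 239.8 with AngII and 256, 276, 292, 231 and 189 with AngII+QDG. Control 3 and Control 5, the libraries with the highest short-against-long balance, were its 2 lowest, and the changes of 0.40 and 0.35 were not called (adjusted p = 0.393 and 0.452, limma). The other 5 of this arm, Ndufa1, Ndufa11, Ndufc1, Ndufc2 and Ndufs5, had changes between -0.29 (Ndufa1) and -0.06 (Ndufc2) in AngII against Control. None of them was called in either comparison with Control.

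In the distal part of the membrane arm, 3 of 10 members were called lower in AngII against Control and 5 of 10 in AngII+QDG against Control, beside 1.48% and 3.31% of all genes. The NADH-oxidising tip held 2 and 3 of 7, and the difference between the arms was not tested. The medians were -0.24 and -0.28, and 0.03 and -0.0048 with the balance as a covariate. Ndufb7 (chromosome 8, 83566671 to 83571626, plus strand), a twin-cysteine protein on the intermembrane side, separated the groups without overlap in both comparisons. It measured 572, 717, 862, 609 and 776 FPKM in Control, 537, 488, 514, 456 and 564 with AngII and 426, 517, 519.7, 470.1 and 453 with AngII+QDG. The highest AngII library, AngII 5, lay just under the lowest Control, Control 1. Its changes were -0.45 (SE 0.11, adjusted p = 0.0244) and -0.55 (SE 0.11, adjusted p = 0.00600), the smallest adjusted p of the members called lower in each case. Across 27 alternative fits it was called in 22 for AngII against Control and in 26 for AngII+QDG against Control, lost in the first case without AngII 2 or AngII 4 among others, and lost in both with the balance as a covariate, where its changes were -0.06 and -0.13.

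Ndufb9 (chromosome 15, 58933756 to 58939488, plus strand), the LYR-motif subunit with the highest level of all members, measured 1049, 1351, 1462, 1200.0 and 1269 FPKM in Control, 999, 934, 1025, 933 and 1083 with AngII and 902, 1091, 1029, 1026 and 999 with AngII+QDG. One library of each treated group, AngII 5 and AngII+QDG 2, lay above Control 1 and no other reached the Control range. Its changes were -0.34 (SE 0.09, adjusted p = 0.0301) and -0.32 (SE 0.09, adjusted p = 0.0249), kept as calls in 10 and 11 of the 15 fits that left out a library. Ndufb2 (chromosome 6, 39592574 to 39603382, plus strand), a single-span subunit, had the largest fall of the called members in both comparisons. It measured 186, 248, 322, 226 and 349.7 FPKM in Control, 174, 170.1, 193, 169 and 187 with AngII and 148, 198, 189, 166 and 178 with AngII+QDG. Control 3 and Control 5 stood highest, Control 1 lay within the treated range, and the changes were -0.54 (SE 0.15, adjusted p = 0.0321) and -0.57 (SE 0.15, adjusted p = 0.0170), which became 0.06 and 0.08 with the balance as a covariate. The first call was kept in 8 of the 15 fits that left out a library, and the second in all 15.

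Ndufb8 (chromosome 19, 44548572 to 44555440, minus strand) and Ndufb11 (chromosome X, 20615326 to 20617619, minus strand), both membrane-spanning, were called lower in AngII+QDG against Control. Ndufb8 measured 662, 816, 1080.0, 779.5 and 786 FPKM in Control, 660.1, 657, 688, 644 and 718 with AngII and 566, 692, 660.4, 625 and 605 with AngII+QDG. Its Control 3 value was the highest by far, and AngII+QDG 2 alone of its group rose above Control 1. Its changes were -0.27 (SE 0.11, adjusted p = 0.0994) and -0.37 (SE 0.11, adjusted p = 0.0270). Ndufb11 measured 462, 584, 743, 520.4 and 720.3 FPKM in Control, 364, 461, 438, 372 and 538 with AngII and 340.1, 492, 379, 517 and 391 with AngII+QDG. Control 1 lay among the treated libraries and the changes were -0.47 (SE 0.16, adjusted p = 0.0619) and -0.51 (SE 0.16, adjusted p = 0.0362).

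The remaining members of the distal arm were not called against Control. Ndufb3 measured 188, 226, 239, 242 and 151 FPKM in Control, 207, 198, 198, 207 and 206 with AngII and 199.9, 217, 220.3, 203 and 207 with AngII+QDG. Its AngII libraries spanned a narrow range inside that of Control, and its changes were -0.02 and 0.02. Ndufb5 measured 197, 235, 334, 248 and 264 FPKM in Control, 228, 281, 297, 286 and 227 with AngII and 289.5, 229, 233, 221 and 248 with AngII+QDG. All 3 groups overlapped, with changes of 0.06 and -0.05. Ndufb10, another twin-cysteine subunit, measured 648, 583, 634, 749 and 719 FPKM in Control, 602, 566, 629.6, 564 and 622 with AngII and 655, 816, 634, 559 and 573 with AngII+QDG. AngII+QDG 2 was its highest library and its changes were -0.16 and -0.05. Ndufb4 and Ndufb6 had changes of 0.16 and -0.20 in AngII and of -0.13 and -0.24 in AngII+QDG against Control.

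**Figure D3:**
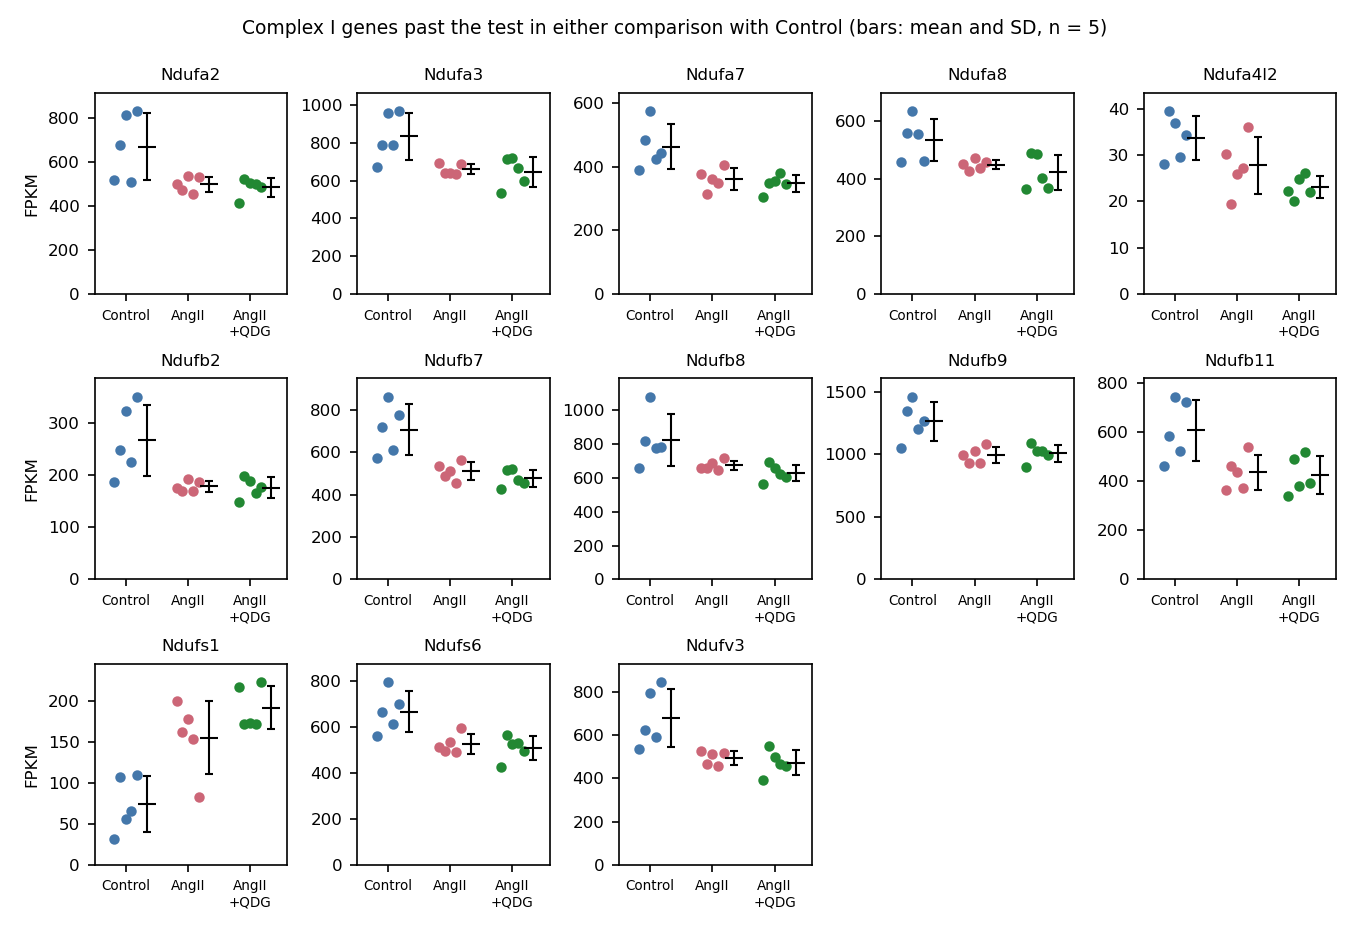
FPKM of the 13 members called in at least 1 comparison with Control, a point for each library and bars for the mean and SD of the 5 libraries of a group. For Ndufb7 the Control points, from 572 to 862, lie above all others, and for Ndufs1 the AngII+QDG points, from 172 to 224, lie above all Control points.

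Ndufab1, the mitochondrial acyl carrier that is bound in both arms of the complex, had changes of -0.28 and -0.33 against Control and was not called. Ndufa4 (chromosome 6, 11900292 to 11907497, minus strand), now counted with cytochrome oxidase, measured 670.5, 881, 1074, 856 and 804 FPKM in Control, 820.2, 791, 801, 792 and 909 with AngII and 752, 840.3, 812, 887 and 867 with AngII+QDG. Control 1 was the lowest and Control 3 the highest library of all, and the changes of -0.04 and -0.03 were not called. Ndufa4l2 (chromosome 10, 127514967 to 127517154, plus strand), a hypoxia-inducible paralog, had the lowest level of the 37. It measured 28.0, 39.4, 37.0, 29.5 and 34.3 FPKM in Control, 30.2, 19.5, 25.8, 27.2 and 36.1 with AngII and 22.3, 20.2, 24.8, 26.0 and 22.0 with AngII+QDG. All 5 AngII+QDG libraries lay below all Control libraries, while the AngII libraries spread across both. Its change was -0.52 (SE 0.15, adjusted p = 0.0239) in AngII+QDG against Control, -0.28 (SE 0.15, adjusted p = 0.195) in AngII against Control and -0.24 (SE 0.15, adjusted p = 0.998) in AngII+QDG against AngII.

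To ask what QDG added, AngII+QDG was compared with AngII. No member was called, and none of the 12267 genes was called either (0.0% higher and 0.0% lower by limma), while 578 of all genes had an unadjusted p under 0.05. No member was among these, and the smallest unadjusted p of a member was 0.128, for Ndufa4l2. With voom on the recovered fragments 1 gene of all was called higher. A single gene was called lower with a pseudocount of 0.1, with the length trend removed, with the balance as a covariate, and without AngII 2, AngII 4, AngII+QDG 3 or AngII+QDG 4. No member was called in any of these fits. The median change of the members was -0.05, beside -0.02 for all genes, and 25 of the 37 lay below zero, beside 53.7% of all genes. In other protein-coding genes that share was 64.55% under 1000 nt and 62.56% from 1000 to 2000 nt. In no member did the libraries of the 2 groups stand apart without overlap, as they did in 0.799% of all genes for lower and 0.595% for higher values. The members with the smallest p in the lower direction were Ndufa4l2 (-0.24), Ndufs3 (-0.10), Ndufb8 (-0.10) and Ndufa8 (-0.10). In the higher direction they were Ndufa12 (0.87), Ndufs1 (0.35), Ndufb10 (0.11) and Ndufa5 (0.09). The adjusted p of each of the 37 was 0.998.

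How far the 2 groups can differ is given by the 95% intervals of the changes. For 30 of the 37 members the whole interval lay within 0.5 log2 units of zero. That held, for example, for Ndufb7 (-0.34 to 0.14), Ndufb9 (-0.17 to 0.21) and Ndufv3 (-0.34 to 0.19). The 7 with wider reach were Ndufa10, Ndufa12, Ndufa4l2, Ndufb4, Ndufs1, Ndufs7 and Ndufs8, whose intervals hold differences beyond 0.5. The interval of Ndufs1 was -0.30 to 1.00 and that of Ndufa12 -0.46 to 2.19. A band of 0.5 is of the size of the falls called in AngII against Control, -0.54 (Ndufb2) to -0.34 (Ndufs6). An interval inside it therefore does not by itself exclude differences as large as the smaller of these falls.

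AngII+QDG was then compared with Control. Of the 37 genes, 12 were lower and 1, Ndufs1, was higher, beside 3.31% of all genes called lower and 16.0% called higher. The lower genes were Ndufa2, Ndufa3, Ndufa4l2, Ndufa7, Ndufa8, Ndufb2, Ndufb7, Ndufb8, Ndufb9, Ndufb11, Ndufs6 and Ndufv3, with changes between -0.57 (Ndufb2) and -0.32 (Ndufb9). All 6 genes lower in AngII against Control were among them, and as both comparisons use the same Control libraries this overlap is no independent evidence. The median change was -0.24, against 0.18 for all genes, and -0.01 with the balance as a covariate, when no member was called. Below zero were 33 of the 37, beside 32.5% of all genes. In other protein-coding genes that share was 74.9% under 1000 nt and 48.0% from 1000 to 2000 nt. Without overlap between libraries, Ndufa4l2, Ndufa7 and Ndufb7 were lower and Ndufs1 higher (1.73% of all genes lower in this sense, 12.8% higher). The count of 13 was 17 without Control 1, 8 without Control 2, 7 without Control 3, 6 without AngII+QDG 5, 4 without AngII+QDG 1 and 2 without Control 3 and Control 5 together.

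Of the 7 core subunits, none was lower and Ndufs1 alone was higher in both comparisons with Control. Of the 28 supernumerary subunits, 6 were lower in AngII and 11 in AngII+QDG, and none was higher. The core medians were -0.15 and -0.21 and the supernumerary medians -0.24 and -0.24. With the balance as a covariate the core medians were -0.02 and -0.11, the supernumerary medians were 0.02 and 0.01, and no call was left. The difference between core and supernumerary subunits was not tested. In 11 of the 12 members called lower, all but Ndufa2, the lowest Control library was Control 1. It was also the Control with the lowest sum over the subunits, 12480 FPKM, beside 14420 to 17550 in the other 4.

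Several members are listed as more than 1 transcript, and 130 transcripts of the 37 genes could be tested. In AngII against Control 4 were lower and none higher, beside 0.404% lower and 3.07% higher of all 21550 transcripts. They were the 623-nt coding transcript of Ndufb7 (-0.45), a 534-nt transcript of Ndufs6 that is annotated as a target of nonsense-mediated decay (-0.75), and retained introns of Ndufb8 (-1.04) and Ndufab1 (-0.94). The retained introns averaged only 2.76 FPKM for Ndufb8 and 6.78 FPKM for Ndufab1 in Control. In AngII+QDG against Control 10 were lower and 3 higher, beside 1.42% and 7.58%. The lower ones included the main coding transcripts of Ndufa3 (-0.40), Ndufa7 (-0.38), Ndufb2 (-0.59), Ndufb9 (-0.32) and Ndufv3 (-0.51). No transcript of a member was called in AngII+QDG against AngII.

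Ndufs1 has 2 coding transcripts in the files, of 2590 and 2661 nt. The 2590-nt one made up 77.5% of the gene's FPKM. It measured 4.97, 95.8, 29.3, 22.1 and 72.6 FPKM in Control, 180.4, 139, 162, 103 and 39.0 with AngII and 199, 114, 161, 109 and 205 with AngII+QDG. AngII+QDG lay wholly above Control, and its change was 2.29 (SE 0.63, limma adjusted p = 0.0379 over transcripts). The 2661-nt transcript measured 15.6, 0.674, 5.91, 26.6 and 0.464 FPKM in Control, 2.09, 17.9, 1.57, 22.7 and 20.7 with AngII and 3.47, 28.8, 3.81, 15.05 and 2.44 with AngII+QDG. It showed no order by group. The split between transcripts that share most of their sequence depends on the authors' quantification. A 1922-nt retained intron was also higher in AngII+QDG, from 0.601 to 2.29 FPKM (change 0.98).

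**Figure D4:**
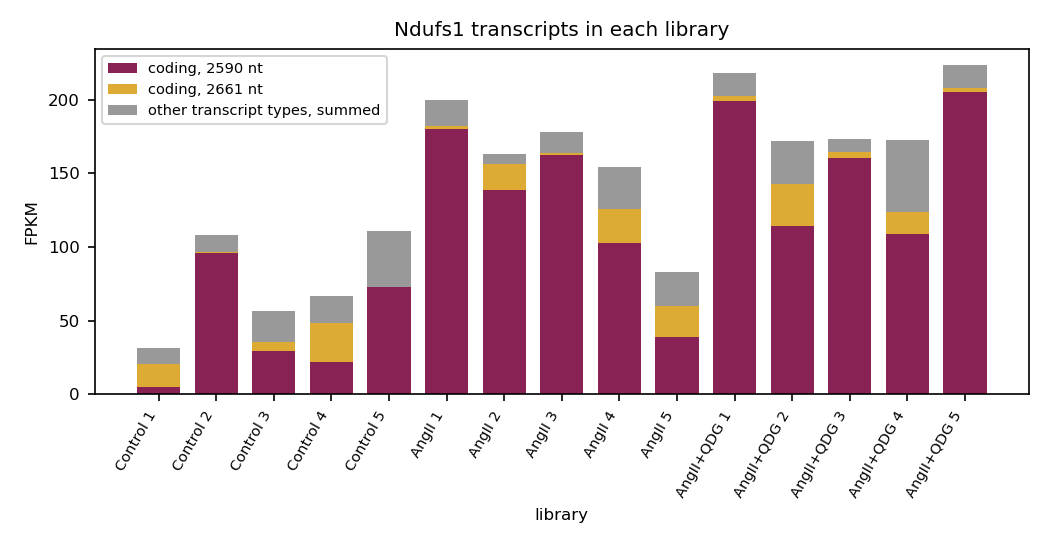
FPKM of Ndufs1 in each library, stacked by transcript: the 2590-nt coding transcript, the 2661-nt coding transcript and the other annotated types. The 2590-nt transcript makes up most of every AngII+QDG bar, and AngII 5 is the AngII library whose bar is within the range of the Control bars.

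Genes that build, regulate or partner the complex were counted by list in the same fit. Of 18 assembly factors measured, which build the complex without staying in it, none was called in any comparison, and their median changes were -0.03 and 0.07 against Control. Of 6 complex I genes of the mitochondrial genome (mt-Nd4l was not listed), mt-Nd3 was lower in AngII than in Control, at 8665 ± 689 FPKM against 12900 ± 3993 (change -0.53, limma adjusted p = 0.0477), and none was called in AngII+QDG against Control. That call was lost without Control 3 and Control 5 and with the balance as a covariate. It was also lost with the length trend removed, after median centring and after quantile normalization. Of the 41 nuclear subunits of complexes II to V, 8 were lower and none higher in AngII, and 15 lower and 1 higher (Sdha) in AngII+QDG against Control. Of all genes, 1.48% and 3.31% were lower and 11.9% and 16.0% higher in these comparisons. The lower calls of 8 and 15 were 1 and 5 without Control 3 and Control 5, 2 and 7 after quantile normalization, and 2 and 14 with the length trend removed. The members of smallest p were Cox5b (-0.49 and -0.49 against Control), Cox7a1 (-0.59 and -0.60), Uqcr10 (-0.40 and -0.43), Cox6b1 (-0.35 and -0.41), Uqcr11 (-0.44 and -0.60) and Atp5d, called in the second comparison only (-0.62). The median changes of this list were -0.21 and -0.31, and 0.04 and -0.02 with the balance as a covariate, when none was called.

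Of 13 regulators of respiratory chain transcription, 5 were higher in AngII and 6 in AngII+QDG than in Control, and none lower, beside 11.9% and 16.0% of all genes called higher. Their median changes were 0.35 and 0.41, beside 0.20 and 0.18 for all genes, and 0.0084 and 0.16 with the length trend removed. Esrrb, an estrogen-related receptor, rose from 2.87 ± 0.805 to 6.71 ± 0.555 FPKM in AngII and to 6.16 ± 0.767 in AngII+QDG (SD, n = 5 each), with changes of 1.02 and 0.91. Gabpa and Gabpb1, the subunits of the ETS factor whose motif was searched, rose by 0.56 and 0.92 in AngII and by 0.67 and 0.74 in AngII+QDG. Of other factors with a searched motif, Yy1 was called (0.35 and 0.35), while Nrf1 (0.11 and -0.15) and Esrra (0.19 and 0.09) were not. Ppargc1b, a coactivator of mitochondrial genes, rose by 0.61 and 0.66. In AngII against Control, Gabpa, Gabpb1, Yy1 and Ppargc1b lost their calls with the length trend removed, after median centring and after quantile normalization. Those calls were also lost without Control 3 and Control 5 and with the balance as a covariate. Yy1 lost its call in each of these fits in AngII+QDG against Control too. With the length trend removed its changes were -0.03 and -0.06. The counts of 5 and 6 were 1 and 2 without Control 3 and Control 5, 1 and 2 after quantile normalization, 1 and 1 with the length trend removed, and 0 and 0 with the balance as a covariate.

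Messages of complex I are short, with a median length of 812 nt, and changes against Control went with length over all genes. In AngII against Control the median change of other genes was -0.14 under 1000 nt (866 genes), 0.07 from 1000 to 2000 nt (2700), 0.23 from 2000 to 3000 nt (2551) and 0.35 at 3000 nt or more (4708). The 24 members under 1000 nt had a median of -0.27 and the 12 from 1000 to 2000 nt one of -0.17, each below that of other genes of their length. Ndufs1, the only member above 2000 nt, stood at 1.13. In AngII+QDG against Control the members' medians were -0.33 and -0.19, beside -0.20 and 0.01 for other genes of these lengths. In AngII+QDG against AngII the medians of other genes spanned less, at -0.05, -0.05, -0.03 and 0.01 from the shortest class to the longest, and both member medians were -0.05. With the trend of change on length removed in each library, 2 members stayed called in AngII against Control, Ndufb7 and Ndufb9, and 8 members were called in AngII+QDG against Control. The members' medians were then -0.18 and -0.19, beside -0.003 and -0.007 for all genes. Balance and group cannot be told apart with these libraries, and the part of the balance in the members' changes was not tested.

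**Figure D5:**
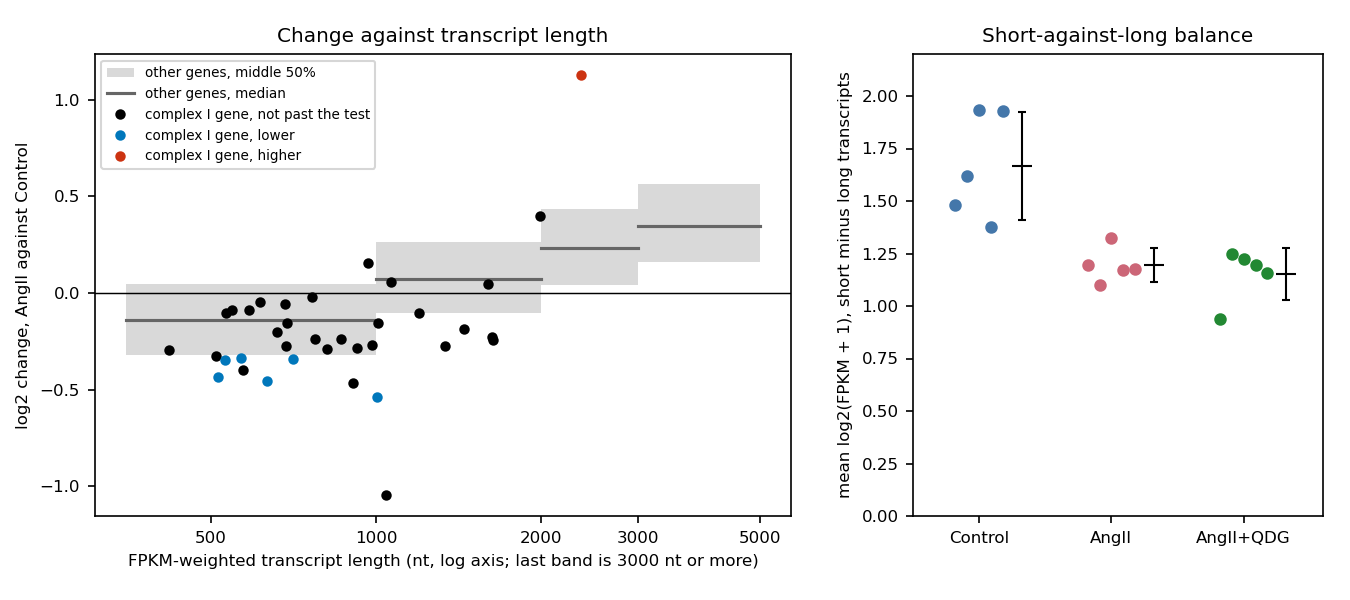
Left: log2 change of 36 of the members in AngII against Control by its FPKM-weighted transcript length, with the median and the middle 50% of other genes in each length class. Right: short-against-long balance of each library, where all Control libraries (1.37 or more) lie above all others, and with this balance as a covariate the members' median change is 0.02.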

How the data were processed

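RNA of 15 mouse hearts (5 Control, 5 AngII, 5 AngII+QDG) was sequenced after depletion of ribosomal RNA, per the labels' protocols. The authors deposited 1 table per library with a value per transcript, read here as FPKM: the unit was inferred from the values, since the headers do not state it. The submitters' processing notes name GRCm38 and limma, while neither aligner nor quantifier is given in the sources used here. Control and AngII files list 31685 transcripts, AngII+QDG files 31734, and 29996 are in both. Named transcripts were summed to 12391 genes with GENCODE M21 (GRCm38), and 8634 assembled transcripts without a name were left out. No 2 libraries held identical values (0 pairs). FPKM times length fell on whole multiples of a step, within 0.1, for 96.3 to 97.2% of values above 0, which gave the depth.

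The 12267 genes that reached 0.5 FPKM in 5 or more libraries entered the tests on log2(FPKM + 1), a scale that understates changes of low genes, with limma 3.58.1 in R 4.3.3 (intensity trend, robust variance, all 15 libraries in 1 fit with 12 residual degrees of freedom, Benjamini-Hochberg adjustment at 0.05). Transcripts listed in every file were tested alike. The library balance was compared by exact two-sided permutation tests (scipy 1.17.1). Python 3.11.15, pandas 2.3.3, numpy 2.4.6 and matplotlib 3.10.9 made the tables and figures. Named genes were those called in any comparison, up to 4 of smallest p where fewer were called in a direction, the 7 nuclear core subunits, Ndufa4, Ndufa4l2, and the members of highest and lowest level. From other lists they were up to 4 called genes by smallest p, and Yy1, Nrf1 and Esrra for the motifs searched. A gene that met this rule stays in the counts and is not reported here. The members, lists, tests and alternatives were chosen with earlier results of these data known. On simulated data with 100 genes changed per size among 12267, 82% of changes of 1 log2 unit and 93% of changes of 2 were recovered for AngII against Control, with 11 unchanged genes called. For AngII+QDG against AngII the shares were 72% and 92% with 12, and for AngII+QDG against Control 72% and 88% with 11. Genes were drawn independently of each other in the simulation, so it held no difference in library balance between groups. The shares and the counts of unchanged genes called therefore do not cover such a difference. Recovery of changes under 1 log2 unit was not tested. The members called lower in AngII+QDG against Control had such changes, from -0.57 (Ndufb2) to -0.32 (Ndufb9). Alternatives were another pseudocount, no filter, other scalings, the mitochondrial genome left out, 2 groups fitted alone, a block for the replicate number, transcripts in every file, removal of the length trend, the balance as a covariate, voom on recovered fragments, and libraries left out.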

Additional observations from a re-analysis of the deposited data

Results flagged for a closer look

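In each group of 5 libraries, a member's highest or lowest library was singled out where its gap to the nearest other library exceeded 0.71 of the group's range, Dixon's 95% critical value. Of 111 such groups 5 were singled out, where chance gives about 5%. They fell in 5 different libraries. Ndufv1 was low in Control 1, at 135 FPKM beside 277 to 310 in the other Control libraries. Ndufb4 was low in AngII+QDG 5, at 94.1 FPKM beside 224 to 271. Ndufv2 was low in AngII+QDG 1, at 280 FPKM beside 329 to 343. Ndufa4 was high in AngII 5, at 909 FPKM beside 791 to 820, and Ndufc2 was high in AngII 3, at 188 FPKM beside 173 to 177.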

How the results depend on the processing

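In AngII against Control, the count of 7 called members was 3 after quantile normalization, 12 after median centring, 0 in a fit of the 2 groups alone, 2 with the length trend removed, 0 with the library balance as a covariate and 0 without Control 3 and Control 5. It was 3 with the replicate number as a block, but same-numbered libraries correlated between -0.096 and 0.087, so the numbers pair no samples. Leaving out single libraries gave 0 to 14. The median of -0.24 was -0.13 after quantile normalization, -0.16 without Control 3 and Control 5, -0.50 after centring, -0.0908 with mitochondrial genome genes left out and 0.0209 with the covariate. With the length trend removed it was -0.18. In place of 0.20, the median of all genes in these fits was -0.01, 0.08, -0.06, 0.30, -0.02 and -0.003, in the order given. In AngII+QDG against Control, the count of 13 was 6 after quantile normalization, 21 after centring, 6 without mitochondrial genome genes, 4 in a fit of 2 groups, 8 with the length trend removed, 0 with the covariate and 2 without Control 3 and Control 5. Single libraries left out gave 4 to 17, and the block gave 13. The median of -0.24 was -0.11 after quantile normalization, -0.50 after centring, -0.0732 without mitochondrial genome genes and -0.0126 with the covariate. With the length trend removed it was -0.19. In place of 0.18, the median of all genes in these fits was -0.03, -0.09, 0.29, -0.06 and -0.007, in the order given. With the covariate, AngII against Control turned to 0.0561 for Ndufb2, 0.00773 for Ndufs6 and 0.0651 for Ndufv3, and AngII+QDG against Control to 0.18 for Ndufa2, 0.0395 for Ndufa3, 0.0234 for Ndufb11, 0.0799 for Ndufb2 and 0.0335 for Ndufv3. Quantile normalization turned Ndufb9 to 0.0142 in AngII+QDG against Control. The balance difference of AngII+QDG and AngII, -0.04, ran from -0.0661 to 0.0118 over the fits without 1 library, turning without AngII+QDG 1. Fits of 2 groups and fits without a library hold fewer samples, and the cause of the changed counts was not tested for any setting. Calls of all genes, 1457 higher and 181 lower in AngII against Control, were 361 and 715 after centring and 406 and 413 after quantile normalization. In AngII+QDG against Control, 1968 and 406 became 791 and 1625, and 983 and 999. Voom called 6 and 12 members in the 2 comparisons. AngII+QDG against AngII kept 0 called members under all alternatives run.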
